A study of Rattus norvegicus with 6 samples.

Results

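The cytosolic ribosomal protein genes were taken as all rows of the deposited gene table whose symbol begins with Rpl or Rps and a digit, or is Rplp0, Rplp1, Rplp2 or Rpsa, leaving out pseudogene symbols and the S6 kinases. The rule found 90 of 18420 rows, of which 53 carried large subunit symbols, 36 carried small subunit symbols and 1 was Rps19bp1, which encodes a protein that binds Rps19 and is not a subunit protein. All 77 standard symbols listed for rat, 46 large and 31 small, were present. Rps19 stood on 2 rows, named here by their gene identifiers 29287 and 108348115.

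The study asked how Nanofat lysate (NFL), a freeze–thaw extract of enzymatically digested fat tissue, acts on chondrocytes exposed to an inflammatory cytokine. Primary articular chondrocytes of wild-type male Sprague-Dawley rats weighing 180 to 220 g were sequenced as mRNA. The TNF-α group (3 libraries, marked Ctrl in the labels) received TNF-α at 10 ng/mL for 6 h. The TNF-α+NFL group (3 libraries) received the same and then NFL for another 24 h. Every library was therefore exposed to TNF-α, and the groups differed in harvest time as well as in NFL, so these cannot be told apart. Libraries of the NC group were not analysed here. The cells were a culture passaged before treatment. The study calls the libraries of a group independent biological replicates, and the labels do not say whether they came from separate cultures or animals, so p-values measure the spread between these libraries. Every direction below follows the deposited group labels, and other material of the study can be read as naming the groups the other way round, which was not settled.

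A ribosome is built from a small subunit, which binds mRNA and reads its codons, and a large subunit, which joins amino acids and holds the exit tunnel. Each subunit consists of ribosomal RNA and many small, abundant proteins that cells make in matched amounts. Most ribosomal protein mRNAs start with a 5′ terminal oligopyrimidine (TOP) tract, a C followed by a run of pyrimidines, through which mTOR signaling controls their translation. Ribosomal protein genes have many processed pseudogenes, whose near-identical sequence makes short reads hard to assign.

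To show that feature in the members with the smallest p-values, the 30 bases around the annotated start are given for 5 members of each subunit, taken in order of p among those with a promoter window in the RefSeq table of rat assembly GRCr8. The first 15 bases lie before the start and the last 15 begin at it. Capitals mark a C at the start together with the unbroken pyrimidine run that follows, where that run has at least 4 pyrimidines after the C.
Rpl10a, chr20:6390518-6390547, plus strand: gaaaccttctgccttCTTTTCCggttcccg
Rpl28, chr1:78083518-78083547, minus strand: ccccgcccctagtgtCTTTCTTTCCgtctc
Rpl29, chr8:115947628-115947657, plus strand: gggcctttctctttctcttccggtcccagg
Rpl10, chrX:157205835-157205864, plus strand: caggcgtgggagcgtCTCTTTTCCTCTggc
Rpl18, chr1:105325255-105325284, plus strand: tctggacctggtctagcaggaggcgccatc
Rps27l, chr8:76443643-76443672, plus strand: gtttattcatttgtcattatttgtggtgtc
Rps15, chr7:10068101-10068130, minus strand: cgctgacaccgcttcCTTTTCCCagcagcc
Rps21, chr3:187724023-187724052, plus strand: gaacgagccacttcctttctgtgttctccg
Rps9l1, chr1:74430423-74430452, minus strand: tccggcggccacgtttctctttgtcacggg
Rps18, chr20:4933730-4933759, plus strand: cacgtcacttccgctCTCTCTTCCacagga
A window was found for 70 members, with 71 windows in all. The pattern stood at the annotated start in 22 of the 71 (31.0%), against 881 of all 33469 windows (2.63%). It was present in 15 of 43 large subunit windows and 7 of 27 small subunit windows. In other windows, such as those of Rpl29 and Rps21, a pyrimidine run crossed the annotated start with a T at that base, which was not counted. Members with the pattern had a median log2 fold change between the groups of -0.13 (22 tested), and those without it -0.12 (46 tested).

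The level of each member per length was read from the deposited TPM values, which correct for transcript length and express each gene as its share of a library. Together the subunit members took between 9.81% and 11.04% of all TPM in a library. Most members lay close together, and a few stood far from the rest. The highest was Rps2, a protein near the mRNA entry site of the small subunit, at 3800 ± 185 TPM in the TNF-α group and 3665 ± 72.1 TPM in the TNF-α+NFL group (SD, n = 3 each). It was followed by Rplp0, the base of the large subunit's stalk that recruits translation factors, at 3105 ± 98.5 and 2998 ± 25.2 TPM. Their SDs did not overlap, whereas the next levels, those of Rpl41, Rps6 and Rpsa, were not separated beyond their spread. Rpl41, the shortest ribosomal protein, had 2552 ± 269 and 2284 ± 59.7 TPM. Rps6, the target of the S6 kinases, had 2390 ± 112 and 2280 ± 38.2 TPM, and Rpsa, the laminin receptor precursor, had 2377 ± 68.8 and 2301 ± 14.3 TPM. Rpl19 came next in the large subunit, at 1947 ± 81.3 and 1829 ± 36.9 TPM. The median level of a large subunit member was 1265 TPM in the TNF-α group and 1211 TPM in the TNF-α+NFL group, and that of a small subunit member was 1190 and 1142 TPM.

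**Figure D1:**
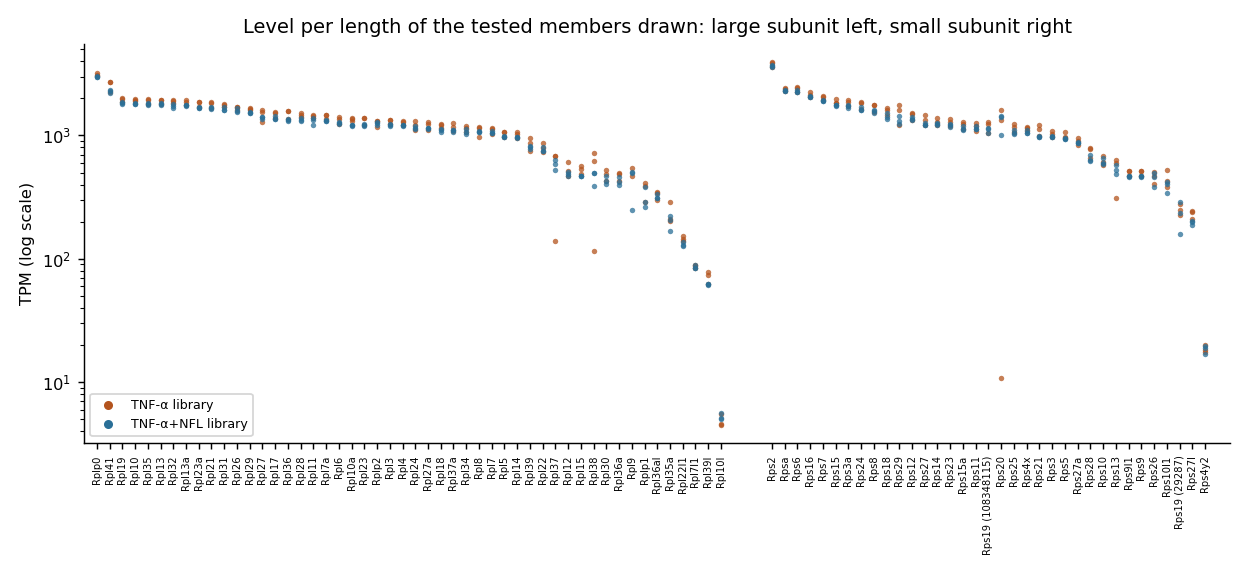
TPM of the tested members, 1 of each subunit not drawn, in each of the 6 libraries on a log axis, large subunit left and small subunit right, ordered by mean level within a subunit. Most members lie near the subunit medians of 1142 to 1265 TPM, Rpl10l and Rps4y2 lie lowest, and TNF-α replicate 3 stands alone far below the other libraries for Rps20, Rpl37 and Rpl38; its value of 0 for Rpl9 cannot be drawn.

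Among the tested subunit members the lowest levels belonged to paralogs, which are second genes for a ribosomal protein and often tissue-restricted. Rpl10l, an intronless copy of Rpl10 known from testis, had 4.89 ± 0.58 TPM in the TNF-α group and 5.27 ± 0.30 TPM in the TNF-α+NFL group. Rps4y2 had 18.6 ± 1.3 and 18.5 ± 1.6 TPM, Rpl39l had 71.5 ± 7.6 and 62.1 ± 0.39 TPM, and Rpl7l1 had 87.1 ± 2.4 and 86.0 ± 3.3 TPM. In the small subunit, Rps27l, a paralog of Rps27 induced by p53, had 232 ± 17.5 and 197 ± 7.6 TPM. Rpl3l, the form of Rpl3 found in heart and skeletal muscle, reached at most 2 estimated counts in any library and was too low to test. Rpl30l1, with at most 2.38, was also too low, so that 88 members entered the test.

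The main comparison asked whether ribosomal protein RNA differed between the groups. Counts were scaled to library size as CPM, with TMM factors that set library sizes by the bulk of genes. Summed over large subunit members, the level was 18794 CPM in TNF-α replicate 1, 21061 CPM in replicate 2 and 20623 CPM in replicate 3, against 18791, 18168 and 18513 CPM in TNF-α+NFL replicates 1, 2 and 3. Small subunit members summed to 13277, 14998 and 14518 CPM in the TNF-α libraries and to 13466, 13017 and 13214 CPM in the TNF-α+NFL libraries. For both subunits TNF-α replicates 2 and 3 were the highest of the 6 libraries, whereas TNF-α replicate 1 lay at the level of the TNF-α+NFL libraries, so the groups overlapped in the small subunit and all but met in the large subunit. The group means were 20159 ± 1203 and 18491 ± 312 CPM for the large subunit, a ratio of 0.917, and 14264 ± 888 and 13232 ± 225 CPM for the small subunit, a ratio of 0.928. In bulk RNA, fewer cells of a type and less RNA per cell cannot be told apart.

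**Figure D2:**
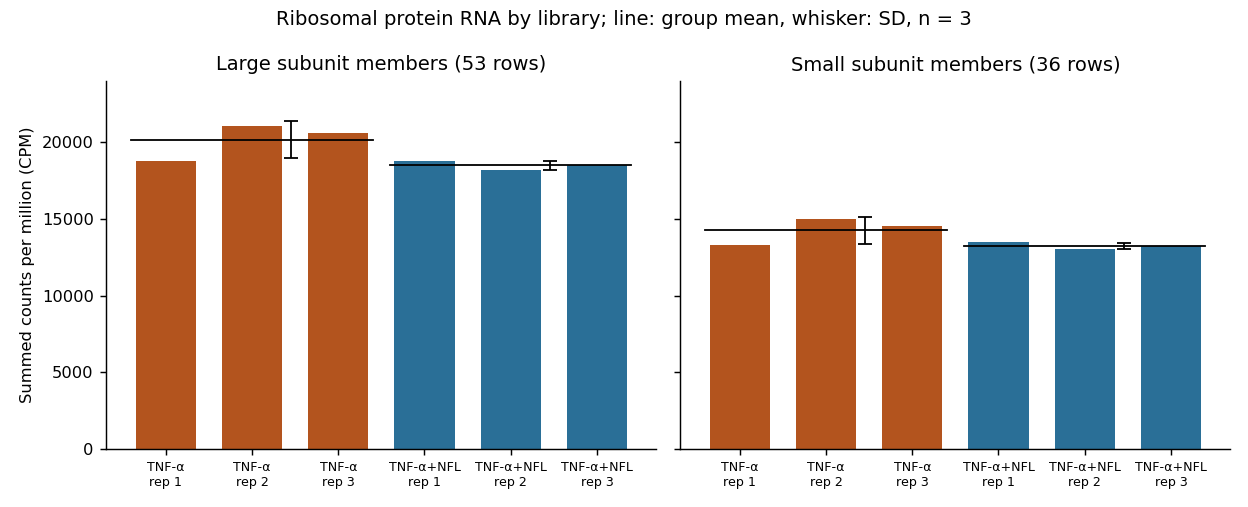
Summed CPM of the large and small subunit members in each library, with the group mean as a line and the SD as a whisker (n = 3). TNF-α replicates 2 and 3 are highest in both panels, and TNF-α replicate 1, at 18794 and 13277 CPM, is level with the TNF-α+NFL libraries.

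Gene by gene, no member passed an adjusted p of 0.05 (edgeR's quasi-likelihood test, Benjamini-Hochberg adjustment over 13250 genes), where 0.611% of all genes did in either direction and 0.204% were lower. At an unadjusted p under 0.05 there were 43 of 88 members, all lower in the TNF-α+NFL group, where 5.45% of all genes were lower at that level. By DESeq2 7 members were called lower (0.875% of all genes given an adjusted p), and without a filter on low counts 2 were (0.267%). Small shifts in one direction were the main feature of the members. The log2 fold change was below 0 for 83 of the 88 members and above 0 for 5, where 51.8% of all genes were below 0. The median was -0.13 over 51 large subunit members (quartiles -0.16 and -0.10) and -0.12 over 36 small subunit members (quartiles -0.15 and -0.096), beside -0.0035 over all genes tested. In the large subunit 48 of the 51 were below 0, and in the small subunit 34 of the 36. The difference between the subunits' medians, -0.0075, was smaller than its spread of 0.013 between libraries of a group. TNF-α+NFL values lay below all TNF-α values for 17 members, 13 large and 4 small (19.3% of those tested, against 8.17% of all genes), and above them for 0 members, against 8.66% of all genes.

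**Figure D3:**
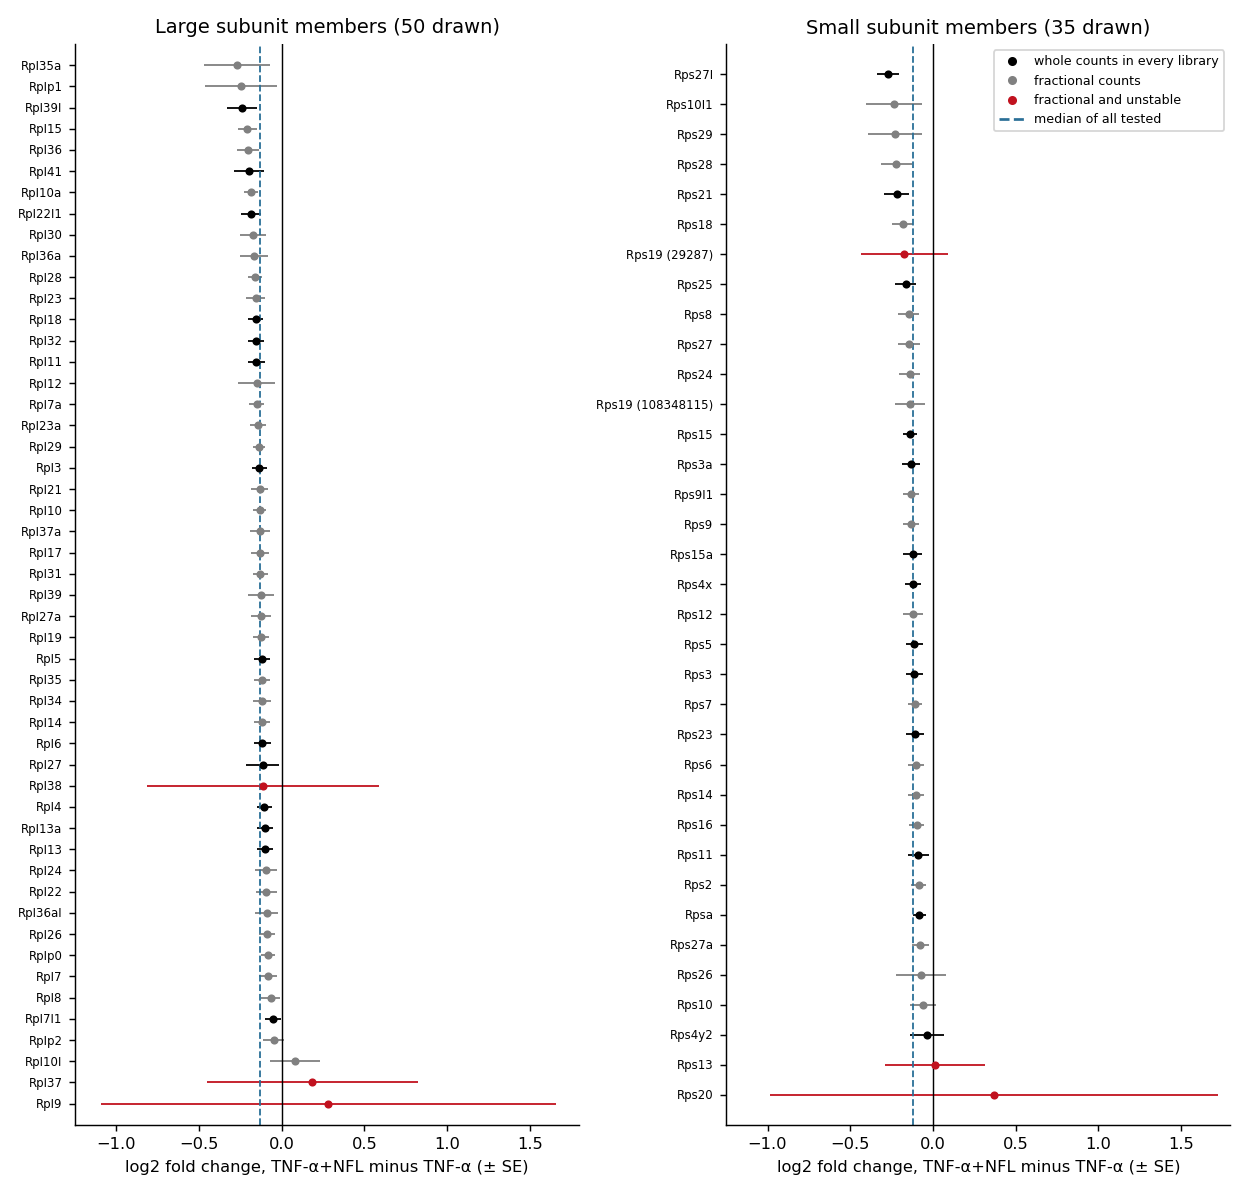
Log2 fold change of the tested subunit members, 1 of each subunit not drawn, TNF-α+NFL minus TNF-α, with its SE from edgeR; black points have whole counts in every library, grey points fractional counts and red points fractional and unstable counts. Nearly all points lie slightly below 0 around the medians of -0.13 and -0.12, and the points above 0 are Rpl9, Rpl37, Rpl10l, Rps20 and Rps13.

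In the large subunit the smallest p belonged to Rpl10a, a protein of the mobile stalk beside the site where tRNA leaves. Its CPM were 446, 486 and 489 in the TNF-α libraries and 411, 417 and 421 in the TNF-α+NFL libraries. The groups did not overlap, and the difference did not pass the adjusted threshold (log2 fold change -0.19 ± 0.042 SE, adjusted p = 0.0736 by edgeR's quasi-likelihood test). Rpl28, a protein that bacterial ribosomes lack, had 408, 436 and 414 CPM against 385, 366 and 374 CPM (-0.16 ± 0.040, adjusted p = 0.103). In both of these genes every TNF-α+NFL library was below every TNF-α library, with TNF-α replicate 1 nearest to them. Rpl29 (-0.14 ± 0.037) and Rpl15, which is needed for large subunit rRNA maturation (-0.21 ± 0.057), did not overlap either.

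In the small subunit the smallest p belonged to Rps27l, with 71.3, 83.2 and 85.8 CPM in the TNF-α libraries and 68.6, 63.1 and 67.5 CPM in the TNF-α+NFL libraries. The groups did not overlap, and the difference did not pass (-0.27 ± 0.066, adjusted p = 0.115 by edgeR's quasi-likelihood test). Rps15, which is required for nuclear export of the young small subunit, had 427, 477 and 447 CPM against 407, 408 and 413 CPM (-0.14 ± 0.043). Rps21 had 157, 197 and 184 CPM against 152, 152 and 157 CPM (-0.22 ± 0.074), with TNF-α replicate 1 only just above the TNF-α+NFL libraries. Rps9 and Rps9l1 had identical values in every library (172, 194 and 195 CPM against 172, 168 and 172 CPM; -0.13 ± 0.049), so reads of that sequence were shared equally between the rows. RefSeq now lists the identifier of Rps9l1 as Rps9. Both rows count as members, so the same values enter the member counts and the small subunit median under each, except where copies were added. The exact permutation test over samples cannot give a p below 0.10 with 3 against 3 libraries.

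The paralogs were spread more widely than their subunits' quartiles. Rpl39l was at -0.24 ± 0.089, Rpl22l1 at -0.18 ± 0.060, Rpl36al at -0.092 ± 0.070, Rpl7l1 at -0.052 ± 0.048, Rps4y2 at -0.037 ± 0.101 and Rpl10l at 0.080 ± 0.152 (log2 fold change ± SE). Rpl39l, Rpl22l1 and Rps27l did not overlap between the groups, and no paralog passed the adjusted threshold; without TNF-α replicate 1, 4 of 7 were called lower, where 3.51% of all genes were. Rps19bp1 was at -0.026 ± 0.130.

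TNF-α replicate 1 decided how many members were called. It was the lowest TNF-α library for 75 of the 88 members, and it lay within or below the TNF-α+NFL range for 61. TNF-α replicates 2 and 3 were both above every TNF-α+NFL library for 70 members, against 18.4% of all genes. The SD of the CPM was larger in the TNF-α group for 85 members, with a median coefficient of variation of 8.41% against 2.93% in the TNF-α+NFL group, whereas 62.5% of all genes had the larger SD in the TNF-α group. Without TNF-α replicate 1, 66 of 88 members (39 large and 27 small) passed an adjusted p of 0.05 and were lower in the TNF-α+NFL group, where 3.51% of all genes were, and the medians were -0.18 in both subunits. Rpl41 (-0.30, adjusted p = 1.04e-05 by edgeR's quasi-likelihood test) and Rpl15 (-0.28, adjusted p = 1.51e-05) then had the smallest adjusted p. Leaving out any other library gave 0 calls. Why TNF-α replicate 1 differs was not tested.

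The members are short, and the libraries differed by gene length. The median effective length of the members was 538 bases against 2522 bases over all genes tested, and 86 of the 88 were shorter than the first quartile of all genes. Among genes below the first quartile of length with the members left out (3224 genes), the median deviation from each gene's own mean was -0.036 in TNF-α replicate 1, 0.040 in replicate 2 and 0.066 in replicate 3 on the log2 scale, and -0.019, -0.035 and -0.014 in TNF-α+NFL replicates 1, 2 and 3. Above the third quartile of length (3310 genes) the signs turned, with 0.050, -0.038 and -0.067 in the TNF-α libraries and 0.0098, 0.039 and 0.0081 in the TNF-α+NFL libraries. The same pair of libraries, TNF-α replicates 2 and 3, thus stood apart among short genes other than the members, and the median log2 fold change ran from -0.053 in these shortest genes to 0.034 in the longest. The large subunit members deviated by a median of -0.054, 0.131 and 0.112 in the TNF-α libraries and -0.038, -0.085 and -0.066 in the TNF-α+NFL libraries. With each library's trend with length removed, the medians were -0.049 for the large and -0.033 for the small subunit, 71 of 88 members were below 0 (50.5% of all genes were), and 15 had an unadjusted p under 0.05, all lower (5.49% of all genes were). Rps27l alone was then called lower (0.626% of all genes). With the length trend removed and TNF-α replicate 1 left out, 12 members were called lower, where 1.16% of all genes were, and the medians were -0.045 and -0.047.

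Marker sums were compared by library. The summed TPM of 6 fibroblast markers was 4511 in TNF-α replicate 1, 4070 in replicate 2 and 4197 in replicate 3, and 4500 to 4649 in the TNF-α+NFL libraries, most of it Thy1 and Col1a1, and 3 of the 6 genes were below 0 and 3 above (median log2 fold change 0.021). The 13 chondrocyte markers, mostly Col11a1, summed to 507, 456 and 455 TPM in the TNF-α and 540, 589 and 535 TPM in the TNF-α+NFL libraries. In both sums TNF-α replicates 2 and 3 were the lowest of the 6 libraries. Of the 11 chondrocyte markers tested 8 were above 0, with a median log2 fold change of 0.070, or 0.17 without TNF-α replicate 1. These markers are long, with a median effective length of 4898 bases. With the length trend removed their median was 0.033, or 0.095 with TNF-α replicate 1 left out as well. In the same list Col2a1, the main collagen of cartilage, was at 7.72 and 9.23 TPM on average, and Cnmd and Matn1 were at or near 0. The labelled chondrocytes thus carried low levels of defining markers. Macrophage markers (5 of 6 found), nearly all Cd68, summed to 46.1, 40.0 and 36.5 TPM in the TNF-α and 36.6, 33.7 and 43.0 TPM in the TNF-α+NFL libraries, with Ptprc near 0, and did not set TNF-α replicates 2 and 3 apart. Adipocyte, endothelial and red blood cell markers summed to at most 0.70 TPM in any library. The part of cell makeup in the members' shift was not tested.

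The deposited counts are estimates, and a count that is not whole marks reads shared among the genes they match. Such counts were found in at least 1 library for 60 of the 90 members (66.7%), against 6531 of all rows (35.5%). The other members showed no sign of shared reads in their counts. All 29 tested members with whole counts in every library were below 0 (51.8% of all genes were), with a median of -0.12, and 17 of them had an unadjusted p under 0.05 (5.45% of all genes were lower at that level). Over these members the sums were 6565, 7391 and 7420 CPM in the TNF-α libraries and 6579, 6363 and 6545 CPM in the TNF-α+NFL libraries for the large subunit, and TNF-α replicate 1 again lay in the TNF-α+NFL range.

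Fractional counts that varied by more than 1.5 times within a group marked 6 members as unstable, namely Rpl9, Rpl37, Rpl38, Rps13, Rps20 and Rps19 (29287). They included 4 of the 5 members with a log2 fold change above 0. Rpl9, a protein beside the factor-binding region of the large subunit, had 2985, 3693 and 0 estimated counts in the TNF-α libraries and 3336, 3197 and 1630 in the TNF-α+NFL libraries. The rows of its 2 copies held 3642, 4269 and 7880, and 3975, 3766 and 5523. The member and its copies together varied 1.201 times over the 6 libraries, so the zero in TNF-α replicate 3 was matched by a gain in the copies. The log2 fold change was 0.28 ± 1.376 for the Rpl9 row and -0.070 ± 0.053 for the sum.

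Rps20, a protein of the small subunit's head, had 7258, 6429 and 53.3 estimated counts in the TNF-α libraries and 6679, 6524 and 4698 in the TNF-α+NFL libraries. Its copies, chiefly a pseudogene row, held 4142, 6374 and 14100, and 5817, 5490 and 7127. The Rps20 row varied 136 times and the sum 1.24 times, and the log2 fold change went from 0.37 ± 1.353 to -0.079 ± 0.058. Rpl38, known for its role in translating Hox mRNAs, had 1619, 2013 and 323, and 1322, 1304 and 1046. Its copy held 744, 1073 and 2325, and 1262, 1134 and 1364. The row varied 6.24 times and the sum 1.31 times, with -0.11 ± 0.701 for the row and -0.12 ± 0.081 for the sum.

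Rps13, which takes part in joining the subunits, had 2880, 3208 and 1618 estimated counts against 2561, 2376 and 2863, and its copies 1386, 1833 and 3758 against 1933, 2052 and 1766. TNF-α replicate 3 was again low in the member and high in its copies, and the sum varied 1.26 times (-0.12 ± 0.062). The rows of Rps19, the protein most often mutated in Diamond-Blackfan anemia, held 1080, 1266 and 1441 against 1151, 780 and 1432 (29287) and 4723, 6140 and 5987 against 5192, 5272 and 4853 (108348115). Here TNF-α+NFL replicate 2 was low in the smaller row, and the sum varied 1.28 times. Rpl37 was not recovered in this way. It had 2205, 2322 and 482 against 2079, 1703 and 1942, while its 2 copies held at most 14.6 estimated counts, and the sum still varied 4.75 times. The identifier of this Rpl37 row is now listed by RefSeq as Rpl37l1.

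**Figure D4:**
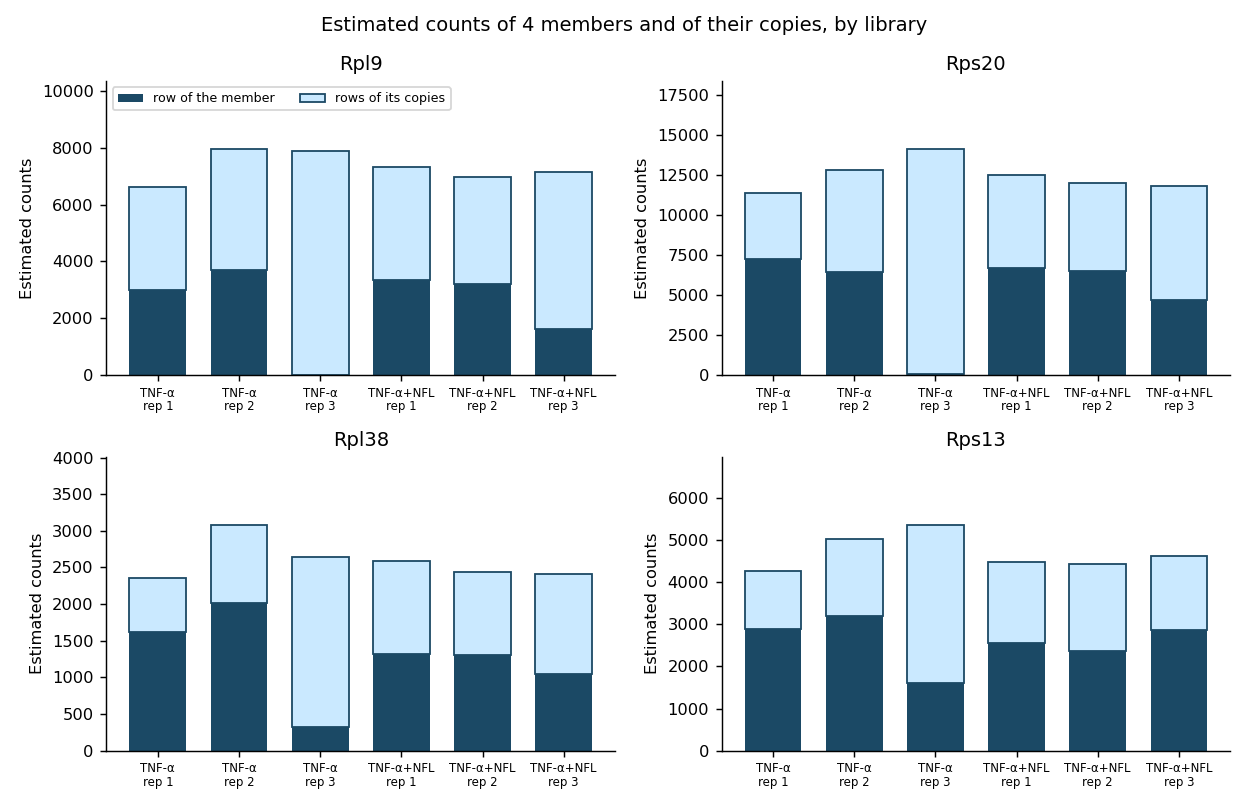
Estimated counts of Rpl9, Rps20, Rpl38 and Rps13 (dark) stacked with those of their copies (light) in each library. In TNF-α replicate 3 the dark part is at 0 for Rpl9 and 53.3 for Rps20 while the full height stays within 1.31 times across libraries.

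The copies' share of the counts was most often highest in TNF-α replicate 3. Copies were found for 47 members, on 83 rows, and where they averaged at least 100 estimated counts (23 members) their share of the total was highest in TNF-α replicate 3 in 16. Over the whole table, 27 rows with fractional counts held over 200 estimated counts in TNF-α replicate 3 and over 1.5 times those of every other library, 11 of them copies of members, against 1 to 4 such rows in each other library. Rows that stood as far below, with over 200 in every other library, numbered 4 in TNF-α replicate 3, all of them members (Rpl9, Rps20, Rpl37 and Rpl38), and 0 to 9 in the other libraries, none of them members. TNF-α replicate 1 had 9 and TNF-α replicate 2 had 5. Among rows with whole counts at the same level of 200, 0 were high or low in this way in TNF-α replicate 3. With copies added to their member, 83 of 85 were below 0, all but Rpl10l and Rpl37, the medians were -0.13 in both subunits, and 0 members were called (unadjusted p under 0.05: 49, all lower, where 5.52% of all genes were). With copies added and TNF-α replicate 1 left out, 74 of 85 were called lower, where 3.65% of all genes were.

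The balance between the subunits changed with how these rows were counted. The ratio of summed large to small subunit counts was 1.416, 1.404 and 1.421 in the TNF-α libraries and 1.395, 1.396 and 1.401 in the TNF-α+NFL libraries, so the groups did not overlap, with means of 1.413 ± 0.0083 and 1.397 ± 0.0031. With copies added it was 1.409, 1.388 and 1.378 against 1.383, 1.384 and 1.389, and the groups overlapped. Over members with whole counts alone it was 1.366, 1.374 and 1.361 against 1.348, 1.348 and 1.360, and the groups did not overlap by a narrow margin. From summed TPM it was 1.3478, 1.3383 and 1.3598 against 1.3355, 1.3321 and 1.3413, and the groups overlapped. With copies added, the ratio of the sums between the groups was 0.915 for the large and 0.919 for the small subunit.

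The other genes of the pathway were read from lists. Among subunit proteins with other symbols, Fau, a fusion of a ubiquitin-like protein with a small subunit protein, was at -0.13 ± 0.065, and the scaffold Rack1 at -0.12 ± 0.045, neither past the adjusted threshold.

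Other mRNAs with TOP starts, such as translation factors, had a median of -0.054, with 16 of 17 below 0 and 0 called (unadjusted p under 0.05: 3). Eif3f (-0.13 ± 0.036) and Eef2, the factor that moves the ribosome along (-0.090 ± 0.036), had the smallest p-values there. Genes of ribosome biogenesis had a median of 0.0018, with 18 of 39 below 0 and 0 called (unadjusted: 2), led by the small snoRNP proteins Nop10 (-0.20 ± 0.059) and Nhp2 (-0.18 ± 0.070). Genes of RNA polymerase I, which transcribes ribosomal RNA, had a median of 0.0048, with 5 of 12 below 0 and 0 called (unadjusted: 1). Polr1d was at -0.15 ± 0.064 and Taf1a at 0.23 ± 0.122. Genes of mTOR signaling and initiation had a median of 0.013, with 7 of 19 below 0 and 0 called (unadjusted: 0). Larp1, the protein that binds TOP starts, was at 0.074 ± 0.040, and Deptor, an mTOR inhibitor, at 0.12 ± 0.070. Mitochondrial ribosomal protein genes, a list added after the data were seen, had a median of -0.066, with 62 of 75 below 0 and 0 called (unadjusted: 10). Without TNF-α replicate 1 their median was -0.13 with 8 called lower, and that of other TOP mRNAs was -0.083 with 5 called lower, where 3.51% of all genes were. In that setting 2 biogenesis genes were called lower, 1 gene of the mTOR list was called higher and 0 of RNA polymerase I were called. Median lengths ran in step with these values, at 538 bases for the members, 949 for mitochondrial ribosomal, 1701 for other TOP, 1984 for biogenesis, 2236 for RNA polymerase I and 3139 for mTOR genes. With the length trend removed the medians were -0.011 for mitochondrial ribosomal and -0.022 for other TOP genes. With TNF-α replicate 1 left out as well they were -0.037 and -0.044, beside -0.045 and -0.047 for the large and small subunit members. The part of length in the members' shift was otherwise not tested.

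**Figure D5:**
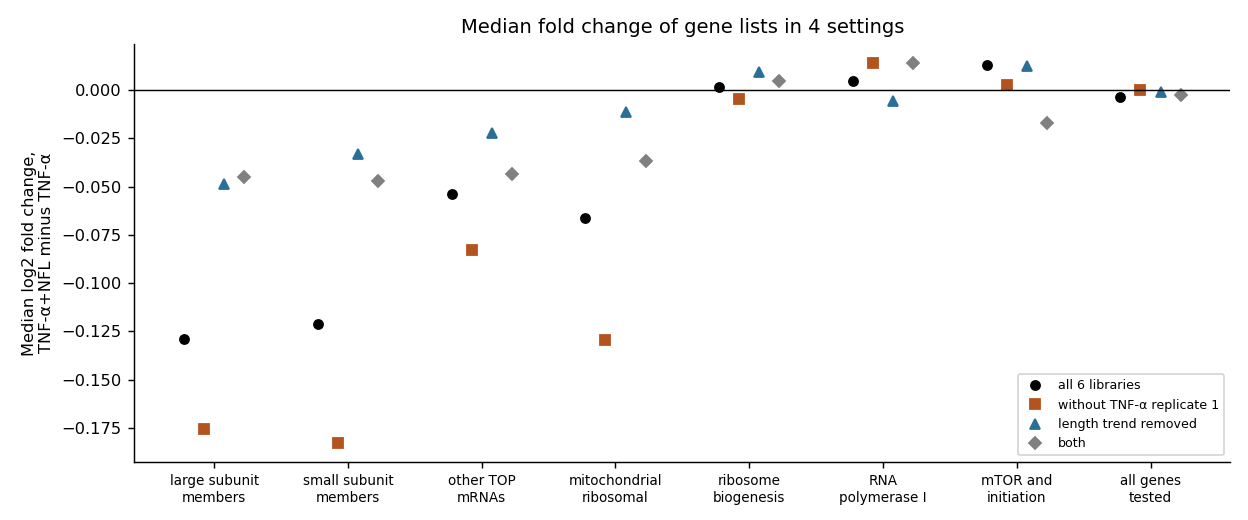
Median log2 fold change, TNF-α+NFL minus TNF-α, of the members by subunit, of related gene lists and of all genes tested, with all 6 libraries, without TNF-α replicate 1, with the length trend removed, and with both changes. The members' medians of -0.13 and -0.12 go to about -0.18 without TNF-α replicate 1 and to between -0.049 and -0.033 with the length trend removed.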

How the data were processed

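RNA of 6 libraries was sequenced by BGI as single-end 50-base reads after oligo(dT) selection. The authors deposited estimated counts per gene, not normalized and not always whole, beside FPKM (scaled to length and mapped reads) and TPM values. The submitters' processing notes name HISAT2 2.0.4, Bowtie2 2.2.5, RSEM 1.2.12 and Rnor_6.0, with no role or order; the annotation and whether strand was used are not given in the sources used here. Libraries held 19344893 to 19725135 estimated counts.

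After rounding, the estimated counts were filtered with filterByExpr, scaled by TMM and fitted with edgeR 4.0.16 (R 4.3.3). Its robust two-sided quasi-likelihood test was used, with Benjamini-Hochberg adjustment across 13250 genes. The comparison used the 3 TNF-α and 3 TNF-α+NFL libraries with no covariate. DESeq2 1.42.0 and limma 3.58.1 were alternatives, with other filters, scalings, a replicate block and leaving out each library. The fit was tested on simulated data. Effective length came from counts and FPKM, and each library's length trend was removed by loess (span 0.5). A count was fractional when over 0.005 from a whole number. Copies were rows whose symbol, in the table or in RefSeq GRCr8 by identifier, is a member's symbol with a pseudogene or numbered suffix. Rps9l1, Rps10l1, Rpl30l1 and the Rps19 row 108348115 were merged as copies. Other rows under a standard or listed paralog symbol in the table, such as Rpl37, were kept apart. A row that RefSeq alone names Rpl26l1, a listed paralog, was merged with Rpl26. Of the members, 87 matched RefSeq. Coordinates are GRCr8, not the build of the counts. Sequences are RefSeq's, whose windows run from 250 bases before to 50 after a start.

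Members named are those past the adjusted threshold, the 5 with the smallest p per subunit and direction, the 3 highest and 3 lowest by TPM per subunit, unstable members and tested paralogs. Some genes this rule names are not reported here. Rpl10, Rpl18 and Rps18 were shown for their promoters after their values were seen. The members, lists and rules were chosen with earlier results of these data known, so they are not independent support.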

Additional observations from a re-analysis of the deposited data

How the results depend on the processing

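Same-numbered libraries showed no clear pairing (correlations of their deviations 0.030, -0.024 and 0.10, against -0.10 to 0.068 for other pairs). These values cannot show whether such libraries shared a culture or animal. The replicate block gave 34 called genes, 0 called members and subunit medians of -0.13 and -0.12. The 81 genes called became 132 without a filter, 148 by DESeq2, 6 by limma on log2(FPKM + 1), 234 with the length trend removed, 23 at an adjusted p of 0.01, and 5 to 930 when a library was left out. The 0 members called became 2 without a filter (Rpl10a among them), 7 by DESeq2 (Rpl10a, Rpl15, Rpl28, Rpl29 and Rps27l among them) and 1 with the length trend removed; the cause was not tested. They became 0 to 66 when a library was left out, the 66 without TNF-α replicate 1. Settings added after seeing the data gave 74 (copies added) and 12 (length trend removed) without that library, and 1 (length trend removed) without TNF-α replicate 3. The medians with the length trend removed were -0.049 (large) and -0.033 (small), and leaving out a library as well gave -0.045, -0.038, -0.059, -0.051, -0.035 and -0.044 for the large subunit and -0.047, -0.018, -0.034, -0.036, -0.030 and -0.033 for the small (without TNF-α replicates 1, 2 and 3, then TNF-α+NFL replicates 1, 2 and 3). Without length correction, the medians lay at -0.18 to -0.095 (large) and -0.18 to -0.086 (small) when a library was left out, and without the unstable members they were -0.13 and -0.12. The large minus small difference ranged from -0.015 to 0.0071, the latter without TNF-α replicate 1. The between-group ratio of the large-to-small balance was 0.989, and 0.995 with copies added. Of 474 comparisons of a named member with an alternative, 455 kept their direction and 19, in 8 members, turned. With the length trend removed, Rpl36al was at 0.012, Rps4y2 at 0.023 and Rpl38 at 0.0064. Rpl38 was at 0.26 by limma-voom and by limma on FPKM, and at 0.14 with the replicate block. With copies added, Rpl9 was at -0.070, Rps13 at -0.12 and Rps20 at -0.079. Leaving out a library gave -0.26 to 0.49 for Rpl37, -0.58 to 0.31 for Rpl38, -0.30 to 0.84 for Rpl9, -0.24 to 0.20 for Rps13, -0.38 to 0.030 for Rps19 (29287), -0.21 to 0.89 for Rps20 and -0.089 to 0.035 for Rps4y2. With 3 libraries a group, shifts near 0.1 on the log2 scale are close to the spread between libraries.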

Other observations

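A further row moved opposite to Rpl37 and was noticed only after its values were seen. LOC100909548, which the RefSeq table does not hold and whose sequence was not analysed here, had 565, 567 and 1969 estimated counts in the TNF-α libraries and 579, 1142 and 862 in the TNF-α+NFL libraries, where Rpl37 had 2205, 2322 and 482, and 2079, 1703 and 1942. The sum of both rows varied 1.18 times over the 6 libraries, against 4.82 times for Rpl37 alone.

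Among members not described above, Rplp1, a stalk protein that works as a pair with Rplp2, was at a log2 fold change of -0.25 ± 0.217 with 96.8, 69.8 and 95.0 CPM in the TNF-α libraries and 62.1, 67.8 and 90.4 CPM in the TNF-α+NFL libraries, and Rplp2 was at -0.049 ± 0.062. Leaving out a library gave -0.42 to -0.14 for Rplp1, without TNF-α+NFL replicates 3 and 1, and -0.12 to -0.0058 for Rplp2, without TNF-α replicates 1 and 3. The Rpl35a row had the lowest log2 fold change of the large subunit, -0.27 ± 0.199, with 33.3, 47.3 and 33.3 CPM against 35.2, 26.5 and 33.0 CPM. The 2 copies of Rpl35a held 64.4% to 79.1% of the joint counts, and the sum was at -0.12 ± 0.097; leaving out a library gave -0.35 to -0.076 for the Rpl35a row, the latter without TNF-α replicate 2. Both Rplp1 and Rpl35a had fractional counts in all 6 libraries, and their groups overlapped. These genes were chosen after their values were seen.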
